A study of Homo sapiens with 26 samples.

Results

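A set of 45 genes, of cytoplasmic and nuclear RNA decay except for MTR, was followed through the knockdown of 5 genes in 786-O cells. The line is a human clear cell renal carcinoma line without functional VHL. The genes were taken by symbol and cover nonsense-mediated decay, deadenylation and the RNA exosome. All 45 were present, of 12239 gene symbols listed over the 3 deposited tables, and all 45 passed the filter on low values in every table. One table held SART1 siRNA 4 and siRNA 6, one held DDX39A siRNA 1 and siRNA 4 with SARNP siRNA 3 and siRNA 9, and one held FIBP siRNA 6 and siRNA 7 with TMEM259 siRNA 5 and siRNA 6. Each table had its own non-targeting control siRNA, and each of the 13 groups had 2 libraries of polyadenylated RNA taken 48 h after transfection, with a cell split at 24 h. The labels do not say whether the 2 libraries came from separate transfections. The p-values rest on the spread between libraries of a group, taken largely from all genes of a table, and this spread may be technical. All groups, controls included, were transfected cells of the same line.

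The mRNA of the gene knocked down was left at 7.8% to 49.3% of its control mean over the 20 knockdown libraries, with the highest remainder in TMEM259 siRNA 6. Libraries held between 8966609 and 26128173 gene reads, the deepest in the SART1 table. The renal marker PAX8 was present in all 26 libraries (normalized signal 1544 to 3042), as were VIM, KRT8 and KRT18. The fibroblast gene COL1A1 lay between 24 and 97. The renal carcinoma marker CA9 was looked for as well and had values in 0 libraries. The same held for PTPRC, PECAM1 and ALB. A gene without values cannot be called present or absent in these cells. In bulk RNA, fewer cells of a kind and less RNA per cell cannot be told apart.

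Nonsense-mediated decay removes mRNAs on which a ribosome stops too early. UPF1 is its helicase, UPF2 and UPF3 link it to the exon junction complex, the SMG1 kinase with SMG8 and SMG9 phosphorylates UPF1, and SMG5 and SMG6 act on the phosphorylated form, SMG6 by cutting the mRNA. General decay begins when the PAN2-PAN3 and CCR4-NOT complexes shorten the poly(A) tail, after which the exosome, a barrel of ring and cap proteins with the nucleases DIS3 or EXOSC10, degrades RNA from the 3′ end. ZFP36 proteins bring CCR4-NOT to AU-rich elements in 3′ UTRs, and TOB proteins bring it to poly(A)-binding protein. The symbol MTR in the set is methionine synthase, an enzyme of folate metabolism and not the exosome helicase MTR4, which these tables list as SKIV2L2. MTR is described in a paragraph of its own but is included in every count, share and median of the 45 genes. It is among the 12 genes lower with both SART1 siRNAs and the 5 lower with both DDX39A siRNAs. It is also among the 11 called with both siRNAs of 2 targets.

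The letters that ZFP36 proteins bind are shown first, because the mRNAs of the ZFP36 genes carry them as well as their targets do. The nonamer UUAUUUAUU was searched on the sense strand of 3′ UTRs in GENCODE v29, with overlapping copies counted. Each window below runs 5′ to 3′ with 8 bases on either side, and the capitals mark the first copy of the nonamer in it. In EXOSC6 and CSF2 further copies overlap the marked copy and run into the lower case.
ZFP36: ugacgacuUUAUUUAUUcuaauaug
ZFP36L1: cuguuggaUUAUUUAUUuuagaaau
ZFP36L2: uauuuaacUUAUUUAUUaucuugug
EXOSC6: uauuuauuUUAUUUAUUuauuaauu
UPF1: agggacucUUAUUUAUUcccauugc
CXCL8: guaaaguaUUAUUUAUUugaaucua
CSF2: uaaaauauUUAUUUAUUuauuuauu
Of the 45 genes, 5 (11.1%) held the nonamer, and these are the first 5 windows. The share was 8.4% of 11172 genes of the tables with a 3′ UTR, and 10 of the 19 measured genes (52.6%) in a list of AU-rich mRNAs known as ZFP36 targets, to which CXCL8 and CSF2 belong. The median 3′ UTR was 1016 bases in the 45 genes, 1050 in all genes and 673 in the AU-rich list, so the window searched differed between sets. The AU-rich list was chosen as mRNAs of this kind, so its high share follows in part from the choice. A match describes the letters and is not evidence of binding.

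Levels between genes were compared per length, as RPKM (reads per kilobase of exon, scaled by the gene reads of the library) in the 6 control libraries. SMG5 (51.3 to 56.4), XRN2 (50.5 to 63.5) and CNOT1 (41.5 to 51.9) had the highest levels per length. DIS3L2 (1.77 to 2.12), EXOSC6 (1.87 to 2.87) and ZFP36 (2.49 to 3.43) were among the lowest. Of the paired CCR4-type deadenylases, CNOT6 lay between 8.62 and 13.7 and CNOT6L between 2.17 and 3.39 on this scale, with no overlap of libraries. The exon lengths come from a later annotation than the counts, so levels of genes with unused long UTRs are understated.

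**Figure D1:**
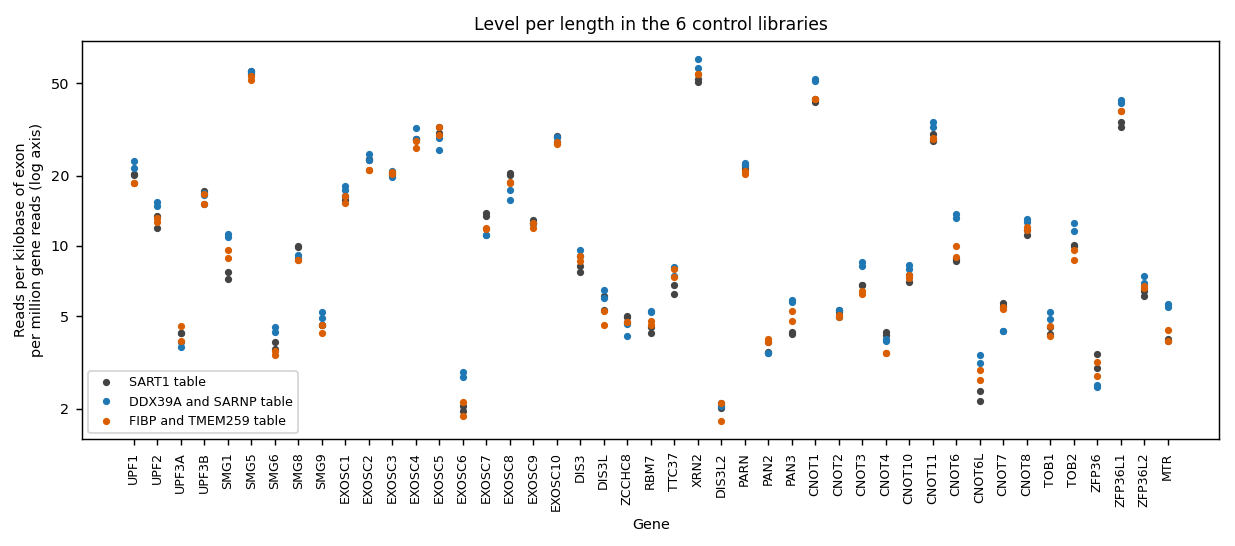
Level per length of the 45 genes in the 6 control libraries (points, coloured by table), in RPKM on a log axis. SMG5, XRN2 and CNOT1 lie at the top and DIS3L2, EXOSC6 and ZFP36 toward the bottom in all 3 tables.

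The knockdowns moved these genes by small amounts and in both directions. SART1 knockdown raised the exosome nuclease DIS3 and the deadenylase subunit PAN3 and lowered PAN2 and several SMG and UPF mRNAs. Among the SMG and UPF genes, SMG8 and UPF3B rose instead. DDX39A and SARNP knockdown both raised ZFP36 and lowered CNOT6, FIBP knockdown raised EXOSC4, TOB2 and RBM7, and TMEM259 knockdown lowered EXOSC6. Of 450 changes (45 genes in 10 siRNAs), 1 passed 2-fold, ZFP36 in SARNP siRNA 3. A change is a log2 difference of siRNA minus control after adding 1 to the normalized signal, given with its standard error (SE), and a gene is called at an adjusted p below 0.05 over all genes of its table.

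With both SART1 siRNAs, 13 of the 45 genes were called higher and 12 lower, beside 22.9% and 20.0% of the 11823 genes tested. With both DDX39A siRNAs 2 were higher and 5 lower (8.67% and 6.37% of 11673 genes), and with both SARNP siRNAs 2 were higher and 3 lower (7.17% and 7.15%). With both FIBP siRNAs 3 were higher and 1 lower (4.68% and 4.39% of 11768 genes). With both TMEM259 siRNAs 0 were higher and 1 lower (2.56% and 2.41%), and the count of 0 was also 0 at an unadjusted p under 0.05 in limma, in edgeR and in DESeq2. DDX39A and SARNP share their controls, as do FIBP and TMEM259. The median change of the 45 genes lay between -0.11 (DDX39A siRNA 4) and 0.07 (SART1 siRNA 4) over the 10 siRNAs, beside medians of -0.01 to 0.00 over all genes tested.

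Leaving out 1 library changed these counts. The 12 genes lower with SART1 were 7 without control library 2 and 8 without control library 1 or siRNA 6 library 1, and 13 higher became 11 to 13 over the 6 libraries left out. The 5 genes lower with DDX39A were 3 without siRNA 4 library 2. The SARNP count of 5 was 3 without control library 1 and 3 without siRNA 9 library 1. The FIBP count of 4 was 1 without control library 2 and 1 without siRNA 6 library 2, and the TMEM259 count of 1 was 0 without control library 2 and 0 without siRNA 5 library 2. DESeq2 on recovered reads gave 2 for SARNP, 1 for FIBP and 0 for TMEM259.

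By single siRNA, SART1 siRNA 4 called 35 of the 45 genes in either direction (57.7% of all genes) and siRNA 6 called 28 (62.9%). DDX39A siRNA 1 called 16 (33.2%) and siRNA 4 called 24 (49.0%). With DDX39A siRNA 4 the calls leaned one way, with 5 genes higher and 19 lower, beside 25.3% and 23.7% of all genes. SARNP siRNA 3 called 12 (41.3%) and siRNA 9 called 25 (58.4%). FIBP siRNA 6 called 8 (22.6%) and siRNA 7 called 16 (34.1%), and TMEM259 siRNA 5 called 14 (22.8%) and siRNA 6 called 8 (19.4%). Of the 45 genes, 45 were called by at least 1 siRNA, 31 by both siRNAs of at least 1 target and 11 by both siRNAs of 2 targets, in either direction. Over the 11486 genes tested in every table these shares were 95.2%, 60.2% and 20.4%, so most genes of any kind met the first 2 criteria. The 11 were UPF2, UPF3B, EXOSC6, MTR, CNOT6, CNOT11, PAN2, ZFP36, ZFP36L1, ZFP36L2 and RBM7.

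**Figure D2:**
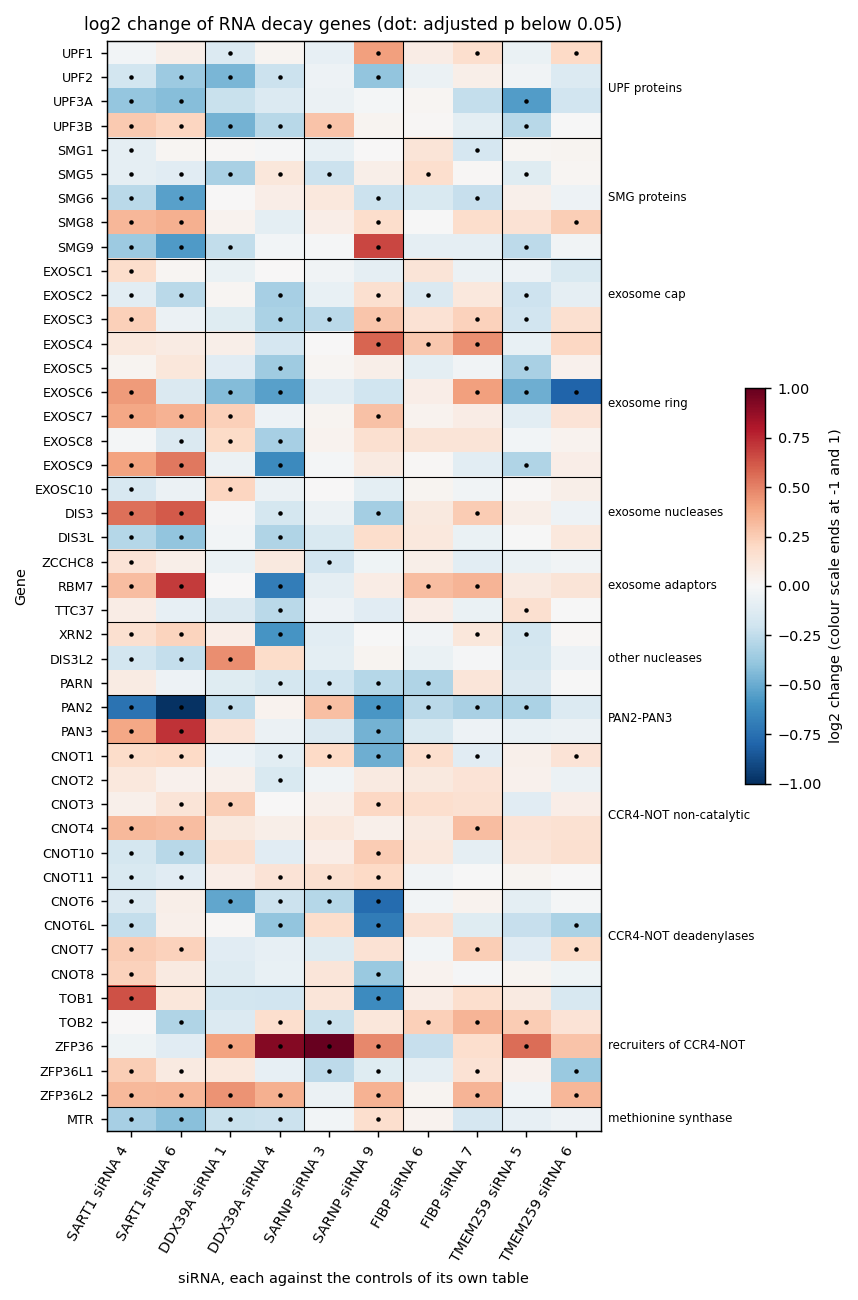
log2 change of each of the 45 genes (rows, grouped by role) for each of the 10 siRNAs (columns) against the controls of its own table, with a dot where the adjusted p was below 0.05. The SART1 columns hold the most paired dots, and the columns of SARNP siRNA 3 and siRNA 9 differ for many genes.

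Of the UPF genes, UPF2 fell in 2 knockdowns and UPF3A and UPF3B moved apart in SART1. UPF2 read 1835 and 1633 (normalized signal) in the SART1 controls, 1549 and 1498 with siRNA 4 and 1314 and 1377 with siRNA 6. All 4 knockdown libraries lay below both controls, with changes of -0.18 ± 0.05 and -0.36 ± 0.05 (SE; adjusted p 0.00493 and 2.61e-06). In the DDX39A comparison UPF2 went from 1121 and 1150 to 812 and 845.7 with siRNA 1 and 1005 and 951.9 with siRNA 4, again without overlap (changes -0.45 and -0.21). UPF3A, the less active paralog in decay, fell with SART1 siRNA 4 and siRNA 6 from 565.9 and 565.5 to 461.6 and 404.5, and 421.7 and 420.2. UPF3B, the X-linked paralog, rose in the same libraries from 1223 and 1087 to 1459 and 1316, and 1373 and 1303 (changes 0.27 and 0.21). With DDX39A it fell instead, from 651.4 and 654.6 to 470.9 and 472.1 with siRNA 1 and 558.2 and 518.5 with siRNA 4 (changes -0.47 and -0.28). In SART1, UPF2 lost its call without control library 1 (adjusted p 0.193), and UPF3B lost its call without control library 2 (0.101) and without siRNA 6 library 1 (0.0552). UPF1 itself was called with both siRNAs of no target, and its largest change was 0.41 with SARNP siRNA 9, from 2524 and 2342 to 3300 and 3153.

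Of the 5 SMG genes, 3 fell and 1 rose with both SART1 siRNAs, beside 20.0% lower and 22.9% higher of all genes. With the other targets, where 2.41% to 8.67% of all genes were called in a direction with both siRNAs, no SMG gene was called with both. SMG9, a partner of the SMG1 kinase, read 841.0 and 844.3 in controls, 675.0 and 631.9 with siRNA 4 and 565.5 and 574.5 with siRNA 6. Its change was -0.37 ± 0.06 and -0.56 ± 0.06 (adjusted p 2.27e-05 and 3.88e-08). SMG8, the other partner, went the opposite way from 861.7 and 859.0 to 1094 and 1069, and 1112 and 1090 (changes 0.33 and 0.36). SMG6, the endonuclease, fell from 874.5 and 947.7 to 803.8 and 712.0, and 637.4 and 614.8, and its 2 siRNAs gave -0.27 and -0.54. SMG5 changed little, by -0.09 and -0.12, and lost its call with DESeq2 (0.0666) and without control library 1, siRNA 4 library 2 or siRNA 6 library 2 (0.209, 0.148 and 0.0955). SMG1 lay between -0.17 and 0.13 over all 10 siRNAs. It has near-identical pseudogene copies that can share its reads, so its values are uncertain.

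In the exosome ring and cap, SART1 knockdown raised EXOSC9 and EXOSC7 and lowered EXOSC2. EXOSC9, a ring subunit, read 1369 and 1410 in controls, 1832 and 1838 with siRNA 4 and 2034 and 1963 with siRNA 6. Its change was 0.40 ± 0.04 and 0.52 ± 0.04 (adjusted p 6.49e-08 and 6.92e-10), with the 4 knockdown libraries all above the controls. EXOSC7, also of the ring, rose from 1382 and 1423 to 1842 and 1831, and 1785 and 1793 (changes 0.39 and 0.35). EXOSC2, a cap subunit, went from 2281 and 2317 to 2187 and 2094, and 1942 and 1866. The EXOSC2 call is weak at siRNA 4 (change -0.10, adjusted p 0.0464). It was lost with DESeq2 (0.141), in a fit of the compared groups only (0.0508) and without either control library, siRNA 4 library 2 or either siRNA 6 library (0.0529 to 0.237).

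EXOSC6, a ring subunit encoded by a single exon, was the gene lowered by TMEM259. It read 119.7 and 138 in controls, 98.02 and 84.87 with TMEM259 siRNA 5 and 69.89 and 76.88 with siRNA 6. No library overlapped, and the changes were -0.49 ± 0.14 and -0.80 ± 0.14 (adjusted p 0.00831 and 3.52e-05). The siRNA 5 side lost its call with DESeq2 (0.0987), without control library 2 (0.13) and without siRNA 5 library 2 (0.122). EXOSC6 also fell with DDX39A, from 187.8 and 178.3 to 127.3 and 144.4 with siRNA 1 and 120.4 and 130.5 with siRNA 4 (changes -0.43 and -0.54). That call was lost with DESeq2 (0.0686) and without siRNA 1 library 1 (0.0723). In SART1 the siRNAs differed, with 314.9 and 327.3 for siRNA 4 above controls of 243.5 and 234 and values of 191.7 and 241.8 for siRNA 6 that overlapped them.

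EXOSC4, a further ring subunit, rose with FIBP from 494.8 and 461.3 to 545.3 and 608.3 with siRNA 6 and 628.4 and 683.0 with siRNA 7. Its changes were 0.27 ± 0.08 and 0.46 ± 0.08 (adjusted p 0.00821 and 6.78e-06). The call was lost with DESeq2 (0.0609), without control library 2 (0.119) and without siRNA 6 library 2 (0.158). EXOSC1, EXOSC3, EXOSC5 and EXOSC8 were called with both siRNAs of no target, and their changes ran from -0.35 (EXOSC5, DDX39A siRNA 4) to 0.28 (EXOSC3, SARNP siRNA 9).

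Of the exosome nucleases, DIS3 had the largest rise in SART1 and its cytoplasmic relative DIS3L fell. DIS3 read 2047 and 1934 in controls, 2753 and 3073 with siRNA 4 and 3021 and 3064 with siRNA 6. The change was 0.55 ± 0.05 and 0.61 ± 0.05 (adjusted p 9.18e-10 and 1.17e-10), and it was kept under every alternative run. DIS3L went from 666.5 and 769.3 to 609.2 and 564.7, and 561.7 and 530.8 (changes -0.29 and -0.39), with the call lost without control library 2 (0.0772). EXOSC10, the nuclear nuclease, lay between -0.16 and 0.21 over the 10 siRNAs and was called with both siRNAs of no target.

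RBM7, which brings RNA to the nuclear exosome as part of the NEXT complex, rose in SART1 and in FIBP. In SART1 it went from 767.1 and 817.0 to 936.3 and 1030 with siRNA 4 and 1273 and 1299 with siRNA 6 (changes 0.31 and 0.70). In FIBP it went from 446.1 and 467.0 to 570.1 and 559.7 with siRNA 6 and 595.3 and 561.2 with siRNA 7 (changes 0.31 and 0.34). In neither case did knockdown and control libraries overlap. With DDX39A siRNA 4 it fell by 0.69 on the log2 scale, to 315.7 and 333.2 from 521.9 and 526.5, while siRNA 1 left it at 506.6 and 545.5. ZCCHC8, its NEXT partner, and TTC37, a subunit of the cytoplasmic SKI complex, had changes between -0.27 and 0.16 and were called with both siRNAs of no target.

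Among the nucleases outside the exosome, XRN2, the nuclear 5′ to 3′ enzyme, rose in SART1 from 4125 and 4022 to 4431 and 4656, and 4627 and 4860 (changes 0.16 and 0.22). Under quantile normalization that change was 0.05 as a mean of both siRNAs and not called (0.308). DDX39A siRNA 4 lowered XRN2 to 1814 and 1696 from 2530 and 2766, and siRNA 1 did not (2615 and 2928). DIS3L2, which degrades uridylated RNA, fell in SART1 from 552.1 and 529.4 to 450.3 and 500.4, and 450.5 and 465.2. Its call was lost under quantile normalization (0.0776), with DESeq2 (0.158) and without either control library, siRNA 4 library 1 or siRNA 6 library 1 (0.0507 to 0.284). PARN, a poly(A)-specific ribonuclease, fell with SARNP from 1242 and 1269 to 1090 and 1101 with siRNA 3 and 991.4 and 1069 with siRNA 9 (changes -0.20 and -0.29). Without control library 2 the PARN call was just lost (0.0513).

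**Figure D3:**
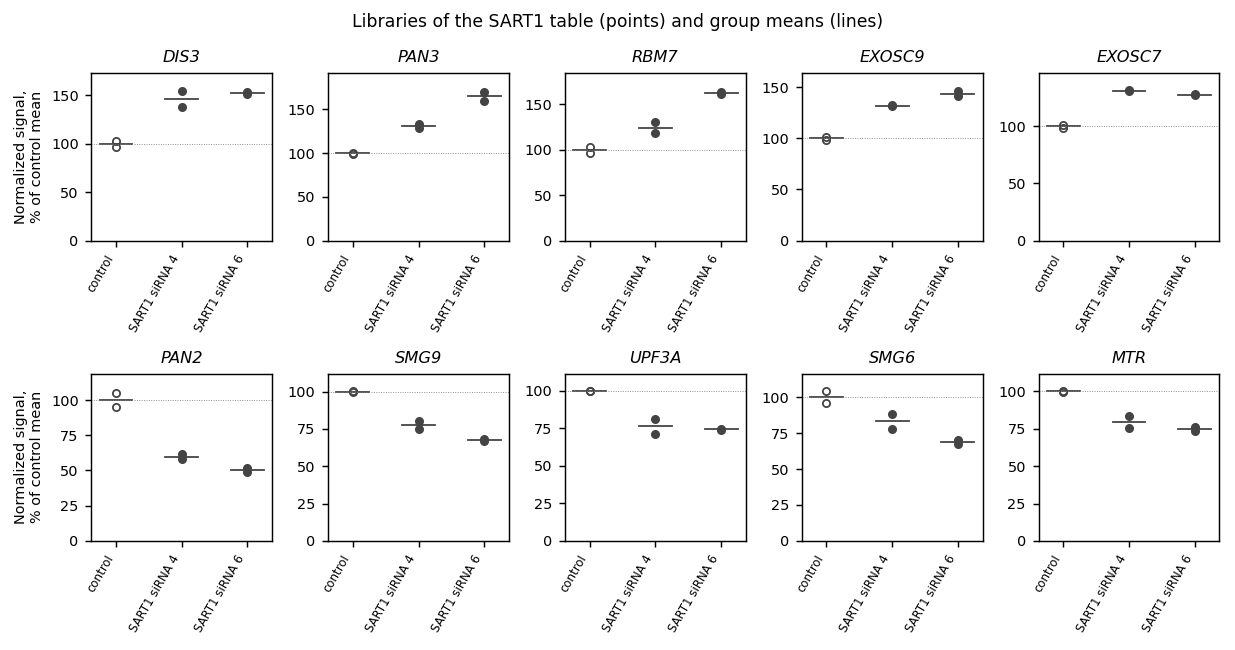
Normalized signal of 10 genes in the SART1 table as a percentage of the control mean, from 0, with each library as a point (open for control) and group means as lines. DIS3, PAN3, RBM7, EXOSC9 and EXOSC7 lie above the controls with both siRNAs, and PAN2, SMG9, UPF3A, SMG6 and MTR lie below.

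The 2 subunits of the PAN2-PAN3 deadenylase moved in opposite directions in SART1. PAN2, the nuclease, read 588.6 and 653.2 in controls, 383.6 and 359.0 with siRNA 4 and 302.9 and 320.1 with siRNA 6. Its change was -0.74 ± 0.08 and -0.99 ± 0.08 (adjusted p 3.1e-08 and 2e-10). PAN3, which holds PAN2 on poly(A)-binding protein, rose from 623.1 and 616.2 to 828.2 and 795.1, and 990.1 and 1055 (0.39 ± 0.06 and 0.72 ± 0.06, adjusted p 5.48e-06 and 3e-10). For each gene the 2 SART1 siRNAs differed from one another, siRNA 6 giving the larger change. PAN2 also fell with FIBP, from 360.3 and 352.6 to 299.8 and 292.8 with siRNA 6 and 278.4 and 290.3 with siRNA 7 (changes -0.27 and -0.33). That call was lost with DESeq2 (0.14) and without either control library or either siRNA 6 library (0.0704 to 0.128). An exon of PAN2 overlaps one of CNPY2 on the same strand in the annotation. Reads over such an overlap may have been set aside as ambiguous, a class of 1.33% to 1.65% of reads by library, so the PAN2 values are uncertain.

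Of the 6 non-catalytic CCR4-NOT genes, SART1 raised 2 and lowered 2, a split close to the 22.9% and 20.0% of all genes. CNOT1, the scaffold, went from 10700 and 10427 to 12024 and 12020, and 12065 and 12137 (changes 0.19 and 0.20). Under quantile normalization the mean CNOT1 change was 0.07 and not called (0.171). CNOT4, a ubiquitin ligase, rose from 691.1 and 675.7 to 831.0 and 885.1, and 827.2 and 867.0. CNOT10 and CNOT11, which form one module on CNOT1, fell by 0.17 and 0.28 and by 0.15 and 0.11 on the log2 scale with siRNA 4 and siRNA 6. Both were lost with DESeq2 (0.122 and 0.146). CNOT10 was also lost without control library 2, siRNA 4 library 2 or siRNA 6 library 1 (0.0549 to 0.221), and CNOT11 without control library 2, siRNA 4 library 1 or either siRNA 6 library (0.0778 to 0.425). In SARNP, CNOT11 rose from 1145 and 1203 to 1293 and 1330 with siRNA 3 and 1367 and 1324 with siRNA 9. The rise (0.16 and 0.20) was lost with DESeq2 (0.0744), without control library 1 (0.149) and without siRNA 3 library 2 (0.114). CNOT2 and CNOT3 had changes between -0.15 and 0.24 and were called with both siRNAs of no target.

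Of the 4 deadenylases of CCR4-NOT, CNOT6 fell with both DDX39A and SARNP siRNAs. The controls these 2 targets share read 1144 and 1099. DDX39A siRNA 1 gave 766.2 and 794.1 and siRNA 4 gave 1013 and 923.9, and SARNP siRNA 3 gave 909.0 and 932.1 and siRNA 9 gave 659.8 and 656.6. All 8 knockdown libraries lay below both controls, with changes of -0.52, -0.21, -0.28 and -0.77 in that order (SE 0.06 each). The DDX39A call was lost without siRNA 4 library 2 (0.108), and the SARNP call was kept under every alternative run. Its paralog CNOT6L fell with SARNP siRNA 9 from 376.6 and 402.6 to 236.4 and 242.0 and lay at 438.3 and 442.4 with siRNA 3. CNOT7 rose in SART1 from 1437 and 1401 to 1669 and 1709, and 1668 and 1656 (changes 0.25 and 0.23). Its paralog CNOT8 rose with SART1 siRNA 4 (0.23) and fell with SARNP siRNA 9 (-0.37), while SARNP siRNA 3 gave 0.12, not called. CNOT8 was not called with both siRNAs of any target.

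The recruiters of CCR4-NOT held the largest single change. ZFP36, the immediate-early member, read 63.65 and 64.08 in the controls shared by DDX39A and SARNP. It was 86.55 and 82.51 with DDX39A siRNA 1, 124.8 and 118.8 with siRNA 4, 161.8 and 157.6 with SARNP siRNA 3 and 99.95 and 80.35 with siRNA 9. Every knockdown library lay above both controls, and the changes were 0.40, 0.92, 1.31 and 0.48 (SE 0.15 each; adjusted p 0.0341, 2.27e-06, 2.78e-09 and 0.00531). These are low counts. The DDX39A call was lost with edgeR (0.0826), with DESeq2 (0.242), in a fit of the compared groups only (0.0793) and without either control or either siRNA 1 library (0.0667 to 0.133). The SARNP call was lost with DESeq2 (0.0505) and without siRNA 9 library 1 (0.136). In SART1 the changes of -0.04 and -0.12 were not called.

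ZFP36L2 rose with both siRNAs of SART1 and of DDX39A. In SART1 it went from 548.2 and 520.6 to 646.8 and 690.2, and 693.9 and 650.5 (changes 0.32 and 0.33). In DDX39A it went from 348.0 and 323.6 to 454.4 and 465.2, and 414.6 and 443.9 (changes 0.45 and 0.35), with no overlap in either case. ZFP36L1, the most abundant of the 3 per length, fell with SARNP from 2782 and 2683 to 2204 and 2366, and 2502 and 2511 (changes -0.26 and -0.12). In SART1 it rose from 3864 and 4060 to 4575 and 4820, and 4246 and 4204. The SARNP call was lost with DESeq2 (0.0503) and without control library 1 or either siRNA 9 library (0.0698 to 0.162). The SART1 call was lost under quantile normalization, edgeR and DESeq2 (0.213, 0.0631 and 0.0993) and without control library 1 or either siRNA 6 library (0.0941 to 0.335). TOB2 rose with FIBP from 546.7 and 497.2 to 592.1 and 636.6, and 672.5 and 644.5 (changes 0.23 and 0.34), and this was lost with DESeq2 (0.0737), without control library 2 (0.195) and without siRNA 6 library 2 (0.134). TOB1 rose with SART1 siRNA 4 from 243.5 and 263.2 to 393.9 and 394.6, and fell with SARNP siRNA 9 from 166.6 and 155.9 to 96.58 and 112.1.

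**Figure D4:**
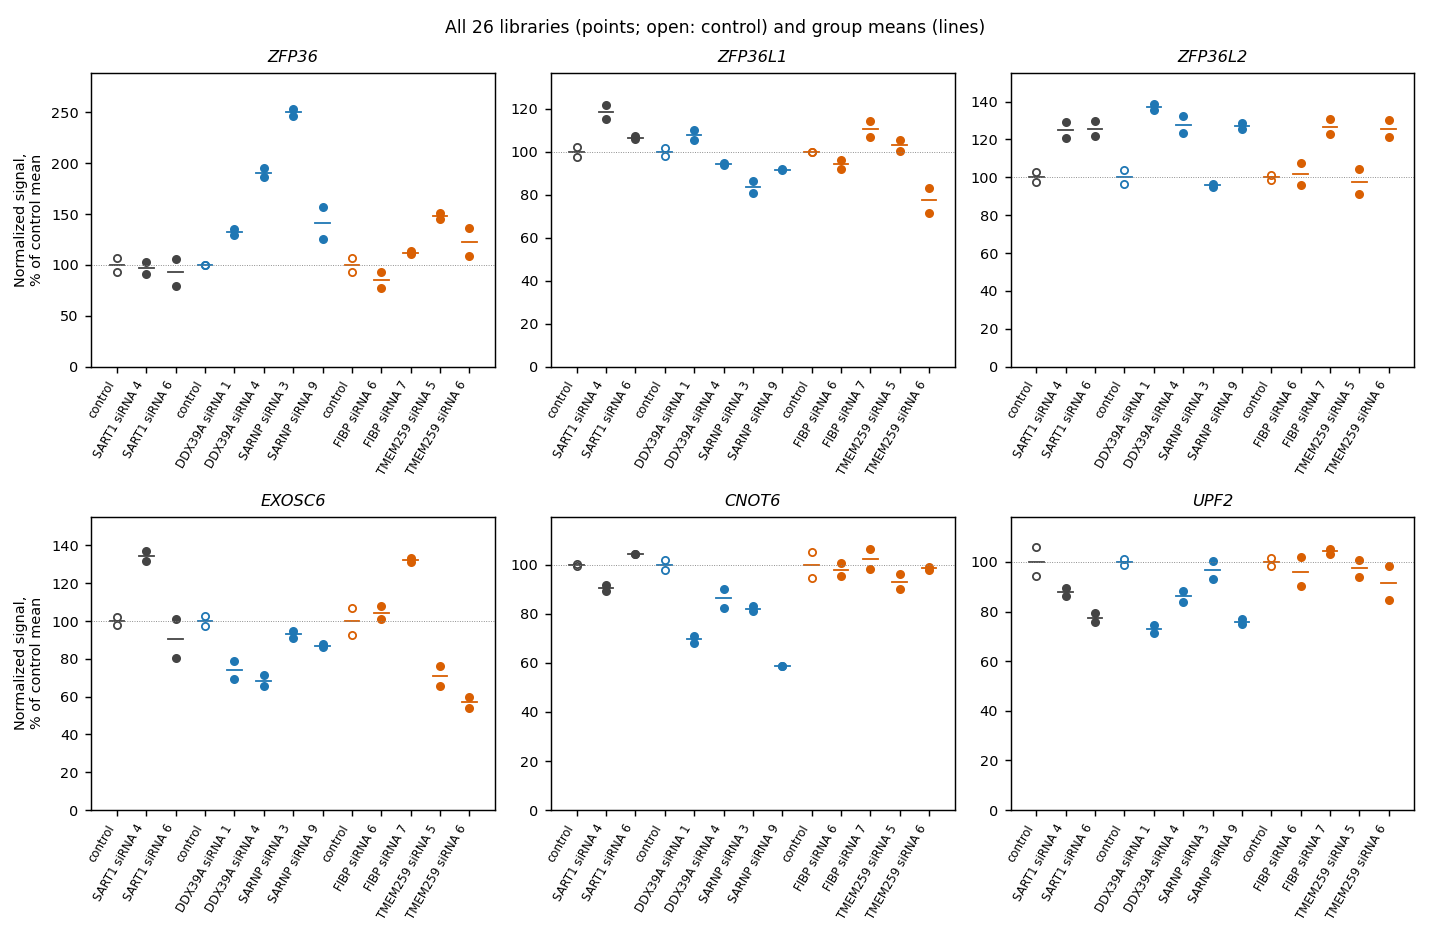
Normalized signal of 6 genes in all 26 libraries as a percentage of the control mean of the same table, from 0 (points, open for control, coloured by table; lines, group means). ZFP36 lies above control in all DDX39A and SARNP libraries, CNOT6 lies below control in the same libraries, and EXOSC6 is lowest with TMEM259 siRNA 6.

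The AU-rich mRNAs that ZFP36 proteins bind were described by a list of targets known from textbooks. With both SART1 siRNAs 17 of 19 measured genes rose and 1, VEGFA, fell, beside 22.9% and 20.0% of all genes, with list medians of 0.73 and 0.79. CXCL8 (1.50 and 1.69), CCL20 (1.61 and 1.33) and IL6 (1.68 and 1.06) rose most, all encoding secreted inflammatory signals. With DDX39A 4 of 18 rose (8.67% of all genes), led by CCL2 (1.08 and 1.50) and PLAU (0.77 and 0.91). With SARNP 2 of 18 rose and 3 fell (7.17% and 7.15% of all genes), the latter CXCL8 (-1.84 and -1.48), CXCL1 (-2.02 and -1.08) and IL6 (-0.89 and -0.79). FIBP raised 4 and lowered 2 (4.68% and 4.39% of all genes), and TMEM259 lowered 1, CCND1 (2.41%). ZFP36 was higher in both DDX39A and SARNP, ZFP36L2 was higher in DDX39A and ZFP36L1 was lower in SARNP. The AU-rich list had medians of 0.42 and 0.16 in DDX39A and -0.31 and 0.16 in SARNP. A link between the ZFP36 genes and the list was not tested.

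**Figure D5:**
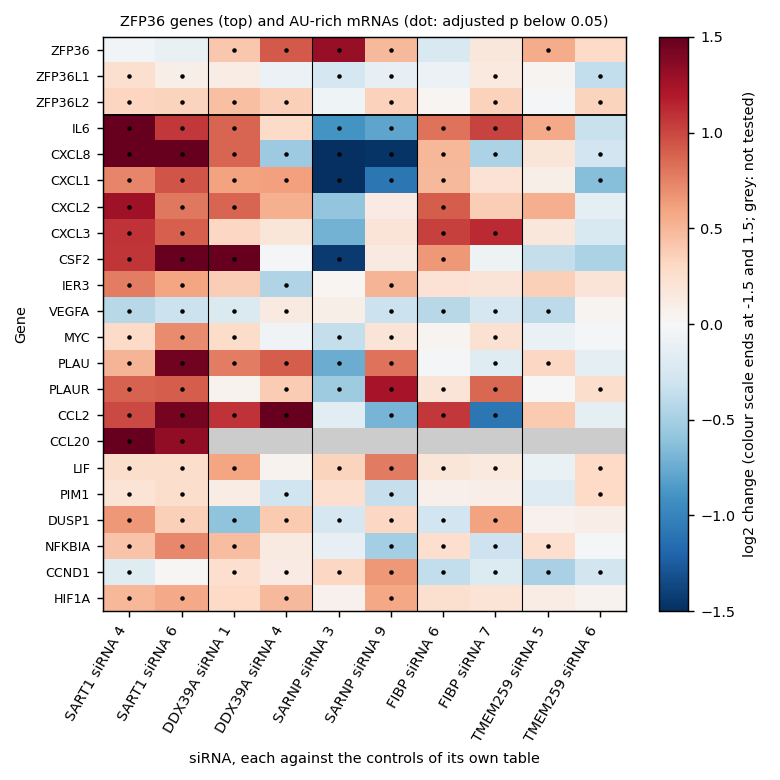
log2 change of the 3 ZFP36 genes (above the line) and 19 AU-rich mRNAs for the 10 siRNAs, each against the controls of its own table, with a dot where the adjusted p was below 0.05 and grey where the gene was not tested. Most AU-rich genes are higher in the SART1 columns, and CXCL8, CXCL1 and IL6 are lower in the SARNP columns.

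MTR, methionine synthase, fell in SART1 from 1045 and 1035 to 867.7 and 787.2 with siRNA 4 and 790.7 and 764.5 with siRNA 6 (changes -0.33 and -0.42). In DDX39A it fell from 814.7 and 786.0 to 710.2 and 660.1, and 717.8 and 661.8 (changes -0.23 and -0.21). The DDX39A call was lost without control library 1, siRNA 1 library 2 or siRNA 4 library 2 (0.0607 to 0.1).

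The 2 siRNAs of a target often gave different values. They differed at 22 of the 45 genes for SART1 (38.5% of all genes), 28 for DDX39A (50.6%), 28 for SARNP (64.1%), 16 for FIBP (35.7%) and 16 for TMEM259 (32.1%). Without SART1 siRNA 4 library 1 the first count was 13 and without siRNA 6 library 1 it was 10. It was 10 for FIBP without siRNA 6 library 1, and for TMEM259 it was 10 without siRNA 5 library 1 and 9 without siRNA 6 library 1. DESeq2 gave 11 for SART1 and 8 for FIBP. There were 5 genes called in opposite directions by the siRNAs of a target, CNOT1 in 2 targets, beside 21.8% of the 11486 genes tested in every table. With SARNP, CNOT1 read 8107 and 8153 for siRNA 3 and 5100 and 4952 for siRNA 9, on either side of controls at 7002 and 7138. With SARNP, PAN2 read 384.0 and 413.0 for siRNA 3 and 193.8 and 239.1 for siRNA 9, around controls at 323.6 and 322.5. With SARNP, EXOSC3 read 665.8 and 635.8 for siRNA 3 and 920.5 and 981.0 for siRNA 9, around controls at 761.7 and 804.2. These 3 genes thus lay on both sides of their controls without overlap. With DDX39A, SMG5 read 3000 and 3010 for siRNA 1 and 4056 and 4063 for siRNA 4, around controls at 3784 and 3731. With DDX39A, EXOSC8 read 822.2 and 931.6 for siRNA 1 and 562.7 and 657.1 for siRNA 4, around controls at 730.9 and 799.9. With FIBP, CNOT1 read 6534 and 6406 for siRNA 6 and 5450 and 5210 for siRNA 7, around controls at 5739 and 5772. No library overlapped in these cases either. Of the 2 SARNP siRNAs only siRNA 9 raised SMG9 (0.67) and EXOSC4 (0.58). Of the 2 DDX39A siRNAs only siRNA 4 lowered EXOSC9 (-0.63) and RBM7 (-0.69).

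SARNP and DDX39A were compared directly as the means of their 2 siRNAs, in which the controls cancel. Of the 45 genes 26 differed, beside 53.6% of all genes, 18 higher and 8 lower in SARNP, where 26.1% and 27.5% of all genes were. UPF3B (0.53 ± 0.05), SMG9 (0.47 ± 0.06) and EXOSC9 (0.38 ± 0.04) were higher in SARNP, and DIS3L2 (-0.36 ± 0.06) and PAN3 (-0.34 ± 0.06) were lower. For each of these genes the mean hides siRNAs of a target that differed from one another. Against control, SMG9 changed by -0.01 with SARNP siRNA 3 and 0.67 with siRNA 9. EXOSC9 changed by -0.06 with DDX39A siRNA 1 and -0.635 with siRNA 4. UPF3B changed by 0.28 with SARNP siRNA 3 and by 0.03, not called, with siRNA 9. DIS3L2 changed by 0.46 with DDX39A siRNA 1 and by 0.18, not called, with siRNA 4. PAN3 changed by -0.14, not called, with SARNP siRNA 3 and by -0.47 with siRNA 9. TMEM259 and FIBP differed at 17 genes, beside 37.1% of all genes, and 15 of these were lower in TMEM259, where 18.3% of all genes were. EXOSC6 differed most (-0.88 ± 0.10, adjusted p 9.82e-10), followed by ZFP36, which was higher in TMEM259 (0.46 ± 0.12), and EXOSC4, which was lower (-0.30 ± 0.06). Against control, ZFP36 was called with TMEM259 siRNA 5 (0.56) but not with siRNA 6 (0.28). Its changes with FIBP siRNA 6 and siRNA 7 were -0.23 and 0.17, neither called. EXOSC4 was called with both FIBP siRNAs and with neither TMEM259 siRNA (-0.075 and 0.20).

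Partners of these complexes were described from lists of genes known from textbooks. Of 14 NMD and exon junction partners, 8 rose with both SART1 siRNAs, beside 22.9% of all genes, led by MAGOHB (0.44 and 0.56), the release factor ETF1 (0.43 and 0.48) and MAGOH (0.45 and 0.36). With SART1 0 of the 14 fell (20.0% of all genes). With SARNP 1 rose, MAGOHB, and 0 fell (7.17% and 7.15%). With DDX39A, FIBP and TMEM259 0 rose and 0 fell, beside 2.41% to 8.67% of all genes. Of 11 exosome and SKI cofactors 5 rose with SART1, read against the same 22.9%, among them C1D (0.49 and 0.57) and SKIV2L2 (0.33 and 0.32), the MTR4 helicase. With DDX39A 2 of these 11 cofactors fell, beside 6.37% of all genes, SKIV2L2 (-0.20 and -0.41) and HBS1L (-0.24 and -0.26). With SARNP 1 of the 11 fell, HBS1L (7.15%), and with FIBP 1 rose, MPHOSPH6 (4.68%). With TMEM259 0 rose and 0 fell (2.56% and 2.41%). Of 19 deadenylation partners 6 rose and 1 fell with SART1, of which the rises are near the 22.9% of all genes and the falls are below the 20.0%. The cytoplasmic poly(A)-binding protein PABPC4 rose with both siRNAs of DDX39A (0.26 and 0.31), SARNP (0.57 and 0.55), FIBP (0.34 and 0.32) and TMEM259 (0.31 and 0.47). PABPC1, of the same list, was called lower with both siRNAs of DDX39A and of SARNP. Of 18 deadenylation partners measured, DDX39A raised 1 and lowered 2 (8.67% and 6.37% of all genes). SARNP raised 2 and lowered 2 of the 18 (7.17% and 7.15%). Of 19 measured, FIBP raised 1 and lowered 0 (4.68% and 4.39%), and TMEM259 raised 1 and lowered 0 (2.56% and 2.41%). BTG3, an antiproliferative partner of CCR4-NOT, fell with SARNP by 0.96 and 1.52 on the log2 scale.

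Of 19 transcripts known as NMD substrates, 10 rose and 1 fell with both SART1 siRNAs, beside 22.9% and 20.0% of all genes, with list medians of 0.14 and 0.15. The stress genes ATF3 (0.85 and 0.85) and GADD45A (0.61 and 0.89) led, and the snoRNA host SNHG12 fell (-0.40 and -0.46). With DDX39A 2 fell (6.37% of all genes), SNHG5 (-0.23 and -0.26) and GAS5 (-0.26 and -0.19). With SARNP 1 rose and 3 fell (7.17% and 7.15%), including ATF3 (-0.42 and -0.53), and with FIBP 3 rose and 1 fell (4.68% and 4.39%). TMEM259 lowered 2, GADD45B and SNHG5 (2.41%).

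Across the 45 genes, exon number and the mean change had a Spearman rho of -0.32 in SART1 and -0.41 in FIBP, beside -0.06 and -0.07 over all tested genes with an annotation. This is a correlation across genes, which share libraries and are not independent replicates. In the other 3 targets the rho over the 45 genes lay between -0.21 and -0.05. An exon of 21 of the 45 genes overlaps one of another gene on the opposite strand, and of 8 genes on the same strand. Beside PAN2, the same-strand overlaps include EXOSC7, RBM7, SMG8 and EXOSC4, and the opposite-strand ones include EXOSC9 and DIS3. The strand counted is not stated, so it is not known for which pairs reads were set aside as ambiguous. Values of such genes are uncertain.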

How the data were processed

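Polyadenylated RNA of 26 libraries in 13 groups was sequenced as paired ends of 42 bases, per the labels. The submitters' processing notes name STAR, Picard, HTSeq, DESeq2 and the build hg19, without versions. Each deposited table holds normalized signal: the authors' read totals per symbol, each scaled by a factor of its library. In every library the signal came in whole multiples of 1 step, from which reads were recovered. Rows that name no gene were left out.

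For each table, log2(value + 1) of genes with a table mean of at least 10 was fitted in limma 3.58.1 (R 4.3.3) with 1 mean per group and eBayes with trend. Residual degrees of freedom were 3 (SART1), 5 (DDX39A and SARNP) and 5 (FIBP and TMEM259). The prior that eBayes drew from all genes of the table added 20.49, 31.85 and 38.37 in the same order. Tests were two-sided with Benjamini-Hochberg adjustment over all genes of the table, and the adjusted p values printed alone in parentheses are the larger of the 2 siRNAs under that alternative. The tables were normalized apart and never merged. Replicates differed beyond counting error (chi-square per degree of freedom 1.52 to 2.93).

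Per-library values were given for genes called with both siRNAs of 2 targets, the 5 largest changes per direction and target, and genes called in opposite directions, with others added for context. The genes and lists were chosen with earlier results of these data known. Alternatives were quantile normalization, a pseudocount of 5, no filter, a filter at 50, DESeq2 1.42.0 and edgeR 4.0.16 on recovered reads, a fit of the compared groups, a replicate block and leaving out each library. Gene structures come from GENCODE v29, another build than hg19, so no coordinates are given.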

Additional observations from a re-analysis of the deposited data

Results flagged for a closer look

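In 6 cases a gene passed the threshold in opposite directions with the 2 siRNAs of a target, and the direct contrast of the siRNAs passed as well. With DDX39A, SMG5 differed by 0.43 (log2, siRNA 4 minus siRNA 1; -0.32 and 0.11 against control) and EXOSC8 by -0.53 (0.20 for siRNA 1 and -0.33 for siRNA 4). With SARNP, siRNA 9 minus siRNA 3 was 0.55 for EXOSC3 (-0.27 for siRNA 3 and 0.28 for siRNA 9), -0.69 for CNOT1 (0.20 and -0.49) and -0.89 for PAN2 (0.30 and -0.58). With FIBP, siRNA 7 minus siRNA 6 was -0.28 for CNOT1 (0.17 and -0.11). Groups of 2 libraries allow no outlier test.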

How the results depend on the processing

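The 42 calls made with both siRNAs were recomputed under 14 alternatives each, 588 in all. Direction was kept in all 588, and 75 lost the call, among them 15 of 42 with DESeq2, 52 of 252 with 1 library left out, 4 under quantile normalization, 2 with edgeR and 2 in the fit of the compared groups. None was lost with a pseudocount of 5, without the filter, with a mean of at least 50 or with the replicate block. DESeq2 lowered the genes called with both siRNAs to 2 (SARNP), 1 (FIBP) and 0 (TMEM259), and those that differ between siRNAs to 11 (SART1) and 8 (FIBP). For SART1 it called 12 higher and 7 lower, against 13 and 12. With 1 library left out, genes called with both siRNAs numbered 19 to 23 (SART1), 5 to 7 (DDX39A), 3 to 5 (SARNP), 1 to 4 (FIBP) and 0 to 1 (TMEM259). Genes that differ between siRNAs numbered 10 to 22, 22 to 27, 24 to 28, 10 to 17 and 9 to 16 in the same order, and between targets 22 to 26 (SARNP and DDX39A) and 16 to 19 (TMEM259 and FIBP). A group left with 1 library was assumed to vary like the others. Same-numbered libraries did not deviate together (correlations -0.06 to 0.05). These correlations cannot show whether same-numbered libraries were prepared in parallel. With the replicate block, genes called with both siRNAs numbered 25, 7, 5, 4 and 1, as without it. The low depth of ZFP36 and EXOSC6 and the 2 libraries a group limit their precision.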
